A study of Homo sapiens with 4 samples.

Results

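The DNAJ genes encode the HSP40 co-chaperones, which carry a J domain and are sorted into classes A, B and C by the regions beside it. The members were all genes with a symbol of DNAJA, DNAJB or DNAJC followed by a number, on array rows that carry 1 symbol, without pseudogene and antisense names. Of 45 such symbols in the array annotation, 41 were measured among 22465 genes, 4 of class A, 12 of class B and 25 of class C. DNAJB3, DNAJC5, DNAJC9 and DNAJC25 lie on rows shared with other genes and are not analysed here.

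A J-domain protein hands an unfolded client to an HSP70 chaperone and speeds the ATP hydrolysis that locks HSP70 onto it. A nucleotide exchange factor then releases ADP, and the client is let go. Class A and B members mostly serve general protein folding, whereas class C members are often tied to a task at a given place, such as the ER, the mitochondrial inner membrane or the ribosome. In hepatocytes and other secretory cells the members whose J domain faces the ER lumen work with the ER form of HSP70, HSPA5.

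Expression was measured in MHCC-LM3 cells, a human hepatocellular carcinoma line grown in culture. The cells had received zerumbone, a sesquiterpene from ginger plants, at 50 µM for 24 h, or DMSO, the solvent, for the same time. Each of the 2 groups has 2 arrays. All values are the authors' log2 expression values, and every difference is zerumbone minus DMSO on that scale. Whether the 2 arrays of a group stand for separate cultures is not stated in the labels. The p-values therefore reflect the spread between arrays, which may be technical.

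Replicate numbers were given to the arrays here in order of deposit and pair no arrays. Array medians over the genes tested ran from 4.53 to 4.56, and the number of arrays limits the precision. An order of processing that followed the array titles cannot be told apart from the groups. A gene was taken as at background level on an array when its value was lower than the 95th percentile over that array of 23 rows of antigenomic probes, which was 4.54 to 5.10. Of 7 hepatocyte markers measured, 6 were at background level on all 4 arrays, and the seventh, ALB, passed that level on 1 zerumbone array, whereas of 3 epithelial markers the keratins KRT8 and KRT18 lay above it on all arrays and EPCAM was at background level on all 4. Of markers of other cell types, 3 of 4 leukocyte genes (all but CD68), 3 of 4 endothelial genes (all but KDR), 3 of 4 fibroblast genes (all but DCN, above it on 1 DMSO array) and the only erythroid gene measured, HBB, were at background level in both groups. CD68 rose by 0.93, KDR fell by 1.93, KRT8 by 1.31, KRT18 by 0.75 and DCN by 0.32, PECAM1 was called lower at background level, and the part of these in the results below was not tested.

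More DNAJ genes rose than fell under zerumbone. In limma, with adjustment over all 22465 genes and a threshold of 0.05, 16 of the 41 members (39.0%) were called higher, against 18.4% of all genes, and 8 (19.5%) were called lower, against 17.7% of all genes. Of all genes, 36.0% were called in either direction. Background level in both groups was found for 48.9% of all genes but for 9 of the 41 members, so these shares do not compare like with like. With dim genes left out, 16 of the 30 members tested (53.3%) were called higher, against 35.7% of the genes tested, and 7 (23.3%) lower, against 36.6%, so the share of falls, close to that of all genes before, was then the smaller. Rises of at least 1 were found for 8 members, against 4.98% of all genes, and falls of that size for DNAJC15 and DNAJC22, against 6.34%. The median difference of the 41 members was 0.13, beside 0.07 over all genes. In bulk RNA, a change in the mix of cells and a change of RNA per cell cannot be told apart.

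Class B held most of the large rises. Of its 12 members 7 rose and 1 fell, with a median difference of 0.66. In class A, DNAJA1 rose and the other 3 did not pass, with a median of 0.16. Class C was split, with 8 rises (32%) and 7 falls (28%) among 25 members and a median of 0.05, and 5 members were at background level in both groups. Of all genes 18.4% rose and 17.7% fell, or 35.7% and 36.6% with dim genes left out. A split of this kind was thus not particular to class C. The same shares of all genes stand beside the counts by place in the cell given below. The classes are described by their counts and were not tested against each other. Without DMSO replicate 2 the count of members called lower went from 8 to 4, without DMSO replicate 1 it was 5, and the count called higher was 13 and 12.

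**Figure D1:**
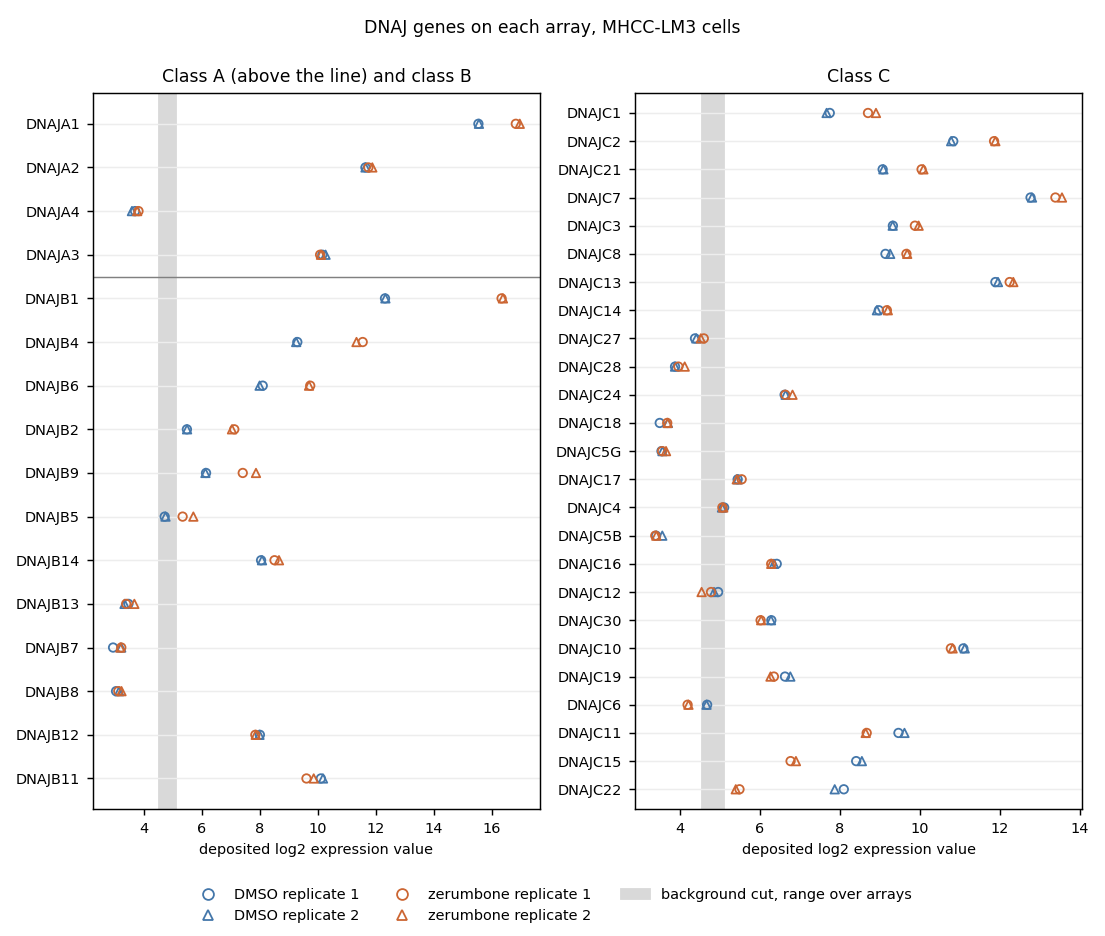
Deposited log2 expression values (horizontal axis) of the 41 DNAJ genes on each of the 4 arrays, DMSO in blue and zerumbone in orange, with circles for replicate 1 and triangles for replicate 2. The grey band is the range of the background level over the arrays, 4.54 to 5.10. Within each class the genes run from the largest rise to the largest fall, and the groups lie far apart for DNAJB1 (12.31 and 12.33 against 16.33 and 16.38) and DNAJC22 (8.10 and 7.87 against 5.49 and 5.40).

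The general chaperone members of the cytosol and nucleus rose most. Of 9 in this group 7 rose, DNAJA2 and DNAJA4 did not pass, and the median difference was 1.35. DNAJB1, the main heat-inducible HSP40 of the cytosol, was at 12.31 and 12.33 on the DMSO arrays and at 16.33 and 16.38 on the zerumbone arrays. Its difference of 4.04 ± 0.061 (SE), a 16.4-fold rise, was the 18th largest rise of the 22465 genes, with a limma adjusted p of 3.50e-05. Both zerumbone arrays lay far above both DMSO arrays, and the arrays of a group differed by less than 0.05.

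DNAJB4, a close relative of DNAJB1, read 9.29 and 9.25 under DMSO and 11.55 and 11.33 under zerumbone. The groups were well apart, by 2.17 ± 0.091 (SE) or 4.49-fold (limma adjusted p 1.02e-04). DNAJB5, another relative of DNAJB1, was near background, at 4.72 and 4.75 under DMSO, the second of these under the background level. Under zerumbone it was at 5.34 and 5.71. It rose by 0.79 ± 0.133 (SE), but the call was lost without DMSO replicate 1 (limma adjusted p 0.0644) or DMSO replicate 2 (0.0591).

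DNAJB6, which holds back the aggregation of polyglutamine proteins, read 8.10 and 7.99 under DMSO and 9.74 and 9.70 under zerumbone. Its rise was 1.67 ± 0.070 (SE), or 3.18-fold, with a limma adjusted p of 1.00e-04. DNAJB2, a member with ubiquitin-interacting motifs that sorts clients towards the proteasome, went from 5.48 and 5.49 to 7.12 and 7.04, a rise of 1.59 ± 0.064 (SE) with an adjusted p of 9.32e-05 in limma. For both genes the zerumbone arrays lay above the DMSO arrays with no overlap.

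In class A, DNAJA1, an abundant partner of cytosolic HSP70, read 15.53 and 15.55 under DMSO and 16.83 and 16.96 under zerumbone. It rose by 1.35 ± 0.074 (SE), or 2.55-fold (limma adjusted p 2.05e-04). The related DNAJA2 differed by 0.17 (95% confidence interval -0.02 to 0.36, limma adjusted p 0.148), and DNAJA4 was at background level in both groups. DNAJA1P5, a pseudogene copy of DNAJA1 with a row of its own, was under background level on all 4 arrays, and whether the DNAJA1 probes also read such copies was not tested. The interval of DNAJA2 lay wholly under that of DNAJA1, 1.16 to 1.54, although the difference between these genes was not itself tested. DNAJC7, which links HSP70 to HSP90, rose from 12.79 to 13.47 (0.69 ± 0.080 SE, limma adjusted p 0.00233).

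The DNA before the start of the members was searched because some cytosolic members are well-known targets of the heat shock factor HSF1. The activity of HSF1 in these cells was not measured. HSF1 binds inverted repeats of a short unit, searched here on both strands as GAANNTTC and TTCNNGAA for 2 units, and as GAA, TTC and GAA, or TTC, GAA and TTC, again with NN between them, for 3 units. Each 3-unit match thus also holds 2-unit matches. Windows of 300 bases, 250 before and 50 from the start on, come from RefSeq (GRCh38.p14) and were found for 37 of the 41 members, in 49 windows. A 3-unit match lay in a window of 2 members (5.41%), DNAJB6 and DNAJA1, against 0.608% of 27305 genes. A 2-unit match lay in a window of 8 members (21.6%), against 16.2% of the genes, and these were 4 of 15 members that rose, 2 of 7 that fell and 2 of 15 that did not pass. The windows below are those of members that changed by at least 1 and hold a match, with matches in capitals, DNAJC15 being the one that fell.
DNAJB1 (chr19:14518348-14518647, minus strand): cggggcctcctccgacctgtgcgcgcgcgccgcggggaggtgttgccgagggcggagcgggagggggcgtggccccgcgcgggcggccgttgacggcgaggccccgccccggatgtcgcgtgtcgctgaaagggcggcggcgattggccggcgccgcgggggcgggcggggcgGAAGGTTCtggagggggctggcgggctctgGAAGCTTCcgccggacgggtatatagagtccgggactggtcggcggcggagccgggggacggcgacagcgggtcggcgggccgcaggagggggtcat
DNAJB4 (chr1:78004689-78004988, plus strand): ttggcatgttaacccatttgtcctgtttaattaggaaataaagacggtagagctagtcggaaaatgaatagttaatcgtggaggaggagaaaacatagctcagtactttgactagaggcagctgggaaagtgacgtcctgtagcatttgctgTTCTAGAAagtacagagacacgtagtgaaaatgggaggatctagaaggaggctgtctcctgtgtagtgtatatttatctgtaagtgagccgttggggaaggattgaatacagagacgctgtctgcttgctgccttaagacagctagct
DNAJB6 (chr7:157336754-157337053, plus strand): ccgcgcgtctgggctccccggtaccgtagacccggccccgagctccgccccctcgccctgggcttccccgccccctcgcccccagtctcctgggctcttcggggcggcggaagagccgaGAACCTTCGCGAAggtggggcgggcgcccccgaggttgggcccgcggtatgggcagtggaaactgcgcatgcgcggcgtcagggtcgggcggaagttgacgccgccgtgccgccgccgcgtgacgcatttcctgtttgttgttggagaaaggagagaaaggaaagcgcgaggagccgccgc
DNAJA1 (chr9:33025023-33025322, plus strand): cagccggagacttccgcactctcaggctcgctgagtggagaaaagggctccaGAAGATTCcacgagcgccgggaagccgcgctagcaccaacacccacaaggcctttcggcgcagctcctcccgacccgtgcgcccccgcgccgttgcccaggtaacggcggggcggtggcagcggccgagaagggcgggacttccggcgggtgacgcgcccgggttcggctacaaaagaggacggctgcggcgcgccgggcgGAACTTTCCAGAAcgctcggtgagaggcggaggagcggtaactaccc
DNAJC15 (chr13:43023336-43023635, plus strand): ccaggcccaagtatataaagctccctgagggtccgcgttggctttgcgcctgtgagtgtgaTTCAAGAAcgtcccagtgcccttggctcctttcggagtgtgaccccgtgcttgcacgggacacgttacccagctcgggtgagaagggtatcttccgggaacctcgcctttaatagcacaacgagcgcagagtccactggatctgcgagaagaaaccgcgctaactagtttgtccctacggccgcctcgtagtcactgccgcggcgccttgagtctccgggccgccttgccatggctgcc

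In DNAJB6 the 3-unit match GAACCTTCGCGAA covers positions -131 to -119 from the start, and in DNAJA1 the match GAACTTTCCAGAA covers positions 4 to 16, just inside the transcript. DNAJB1, the largest rise, holds a pair of 2-unit matches, GAAGGTTC at -77 to -70 and GAAGCTTC at -47 to -40, and DNAJB4 holds TTCTAGAA at -98 to -91 before 1 of its starts. DNAJC15, which fell, also holds a 2-unit match, TTCAAGAA at -189 to -182. DNAJA4, which did not pass and was at background level, holds the same pair of letter runs as DNAJB1, GAAGGTTC at -91 to -84 and GAAGCTTC at -52 to -45. A match describes the letters only and says nothing of binding in these cells. The full ER stress element, searched on both strands of the same windows, lay before 25 of the 27305 genes (0.0916%) and matched no DNAJ window.

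**Figure D2:**
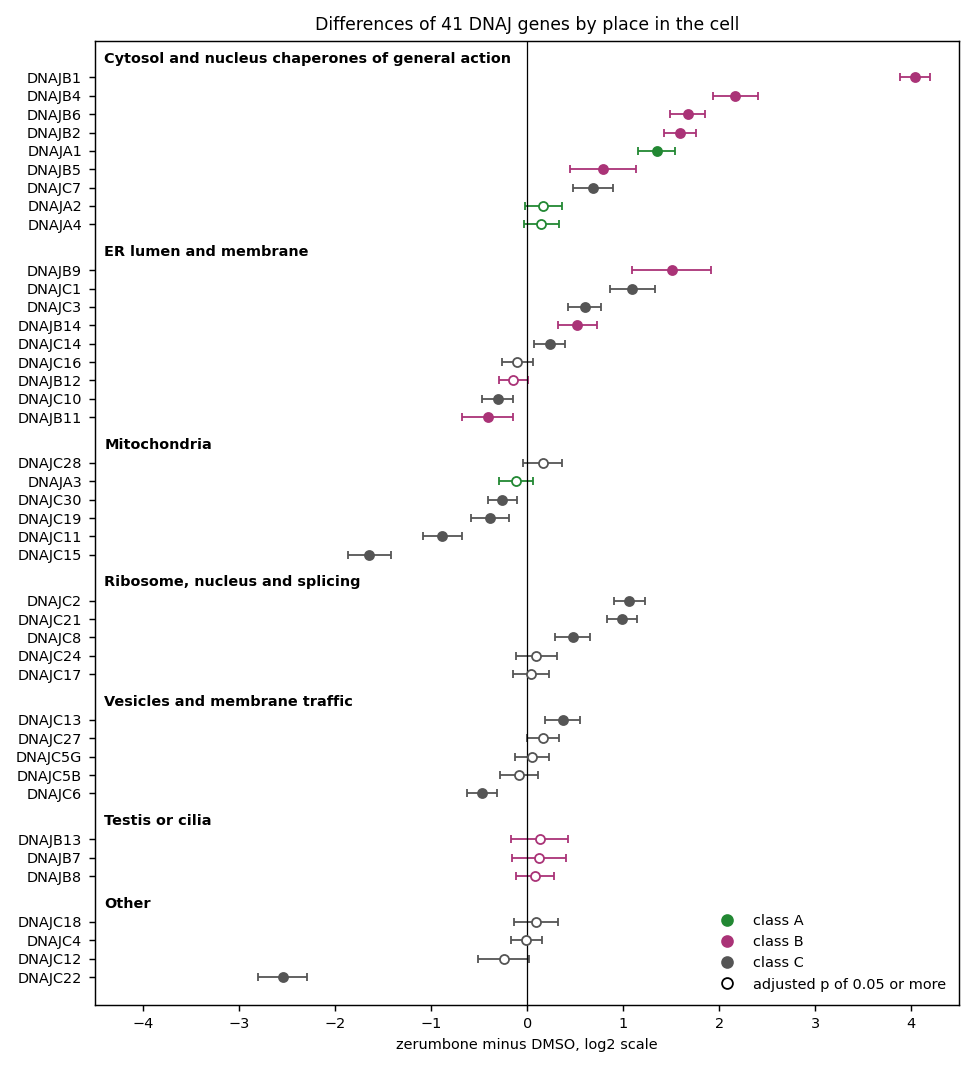
Zerumbone minus DMSO difference on the log2 scale (horizontal axis) of each DNAJ gene, grouped by place in the cell, with 95% confidence intervals from limma as bars. Filled points passed the adjusted p of 0.05, open points did not, and colours give the class. The cytosolic group lies to the right of 0, with a median of 1.35, and the mitochondrial group mostly to the left, with a median of -0.32.

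The ER members went both ways. Of 9 measured, 5 rose and 2 fell, with a median difference of 0.24. DNAJB9, an ER lumen co-chaperone that takes part in degradation of misfolded proteins and restrains the stress sensor IRE1, read 6.14 and 6.12 under DMSO and 7.41 and 7.87 under zerumbone. It rose by 1.50 ± 0.158 (SE), with a limma adjusted p of 0.00158, and its zerumbone arrays were 0.46 apart, the widest gap among the members that rose. DNAJC1, an ER membrane protein whose J domain faces the lumen, read 7.75 and 7.67 under DMSO against 8.70 and 8.90, a rise of 1.10 ± 0.091 (SE) with an adjusted p of 7.16e-04 in limma.

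DNAJC3, a lumen co-chaperone also known as an inhibitor of eIF2 alpha kinases, rose by 0.60, and DNAJB14, an ER membrane member facing the cytosol, by 0.52. The call of DNAJB14 was lost without DMSO replicate 1 (limma adjusted p 0.0522). DNAJC14, an ER membrane protein that helps carry receptors to the cell surface, rose by 0.24, but 7 of 10 alternatives ended that call, with adjusted p up to 0.205. DNAJB12, the partner of DNAJB14 in the ER membrane, differed by -0.14 (95% confidence interval -0.30 to 0.01) and DNAJC16 by -0.10, and neither passed in limma.

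DNAJB11 was lower. This soluble co-chaperone of HSPA5 read 10.10 and 10.18 under DMSO and 9.61 and 9.86 under zerumbone, a fall of 0.41 on the log2 scale with a limma adjusted p of 0.0333. Its other array row moved the same way, from 6.28 and 6.39 to 5.74 and 5.94. The call was lost without either DMSO array (limma adjusted p 0.121 without replicate 1 and 0.173 without replicate 2) and without zerumbone replicate 1 (0.0675). DNAJC10, a disulfide reductase of the ER, fell by 0.31, and its call was lost in the same 3 cases (0.0898, 0.115 and 0.0545 in that order).

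The mitochondrial members were lower or did not pass. Of 6 measured 4 fell, DNAJA3 and DNAJC28 did not pass, and the median difference was -0.32. DNAJC15, an inner membrane protein known to restrain respiratory complex I, read 8.41 and 8.55 under DMSO and 6.77 and 6.90 under zerumbone. Its groups were clearly apart, with a 3.13-fold fall (-1.65 ± 0.086 SE, limma adjusted p 1.81e-04). DNAJC11, which is tied to the complex that shapes the cristae, fell by 0.88 from a DMSO mean of 9.54 to 8.66 (limma adjusted p 8.47e-04).

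DNAJC19, part of the import motor of the inner membrane, fell by 0.39 and DNAJC30, tied to ATP synthase and complex I, by 0.26. The call of DNAJC19 was lost without DMSO replicate 2 (limma adjusted p 0.106) or zerumbone replicate 2 (0.0644), and that of DNAJC30 without any 1 of the 4 arrays (0.0603 to 0.145). DNAJA3, the class A member of the matrix, read 10.15 and 10.27 under DMSO against 10.08 and 10.11. Its arrays were apart by a narrow margin, at -0.12 ± 0.070 (SE), and it did not pass (limma adjusted p 0.264). DNAJC28 was at background level on all 4 arrays.

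**Figure D3:**
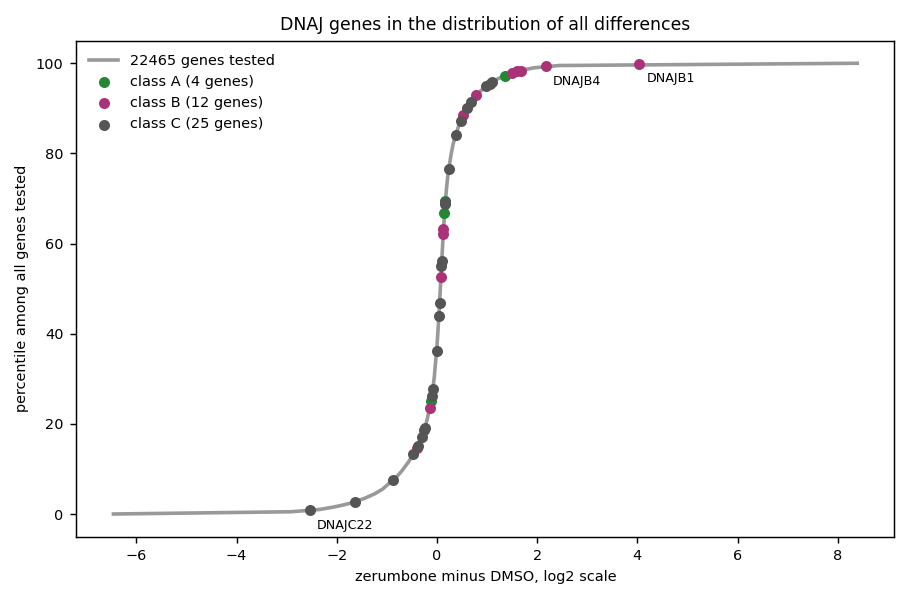
Percentile of each difference among the 22465 genes tested (vertical axis) against zerumbone minus DMSO on the log2 scale (horizontal axis), with the line for all genes and points for DNAJ genes coloured by class. DNAJB1 (4.04) and DNAJB4 (2.17) lie at the upper end and DNAJC22 (-2.54) at the lower end, while many class C genes sit in the middle.

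Members that work at the ribosome or in the nucleus were higher or did not pass. DNAJC2, a part of the ribosome-associated complex that receives nascent chains, read 10.83 and 10.78 under DMSO and 11.86 and 11.89 under zerumbone, a rise of 1.06 ± 0.062 (SE) with a limma adjusted p of 2.48e-04. DNAJC21, which acts in the maturation of the large ribosomal subunit, rose by 0.99, from a mean of 9.08 to 10.07 (limma adjusted p 2.87e-04). DNAJC8, found in the spliceosome, rose by 0.47. DNAJC17, a splicing-linked member, and DNAJC24, which serves the making of diphthamide on elongation factor 2, differed by 0.04 and 0.09 with overlapping groups.

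Among members of vesicle traffic, DNAJC13, an endosomal sorting protein, rose by 0.37. That call was lost without DMSO replicate 1 (limma adjusted p 0.0963) or DMSO replicate 2 (0.0647). DNAJC6, the auxilin that uncoats clathrin vesicles, was called lower (limma adjusted p 0.00318), from 4.68 and 4.66 to 4.19 and 4.21. It was under background level on both zerumbone arrays and on 1 DMSO array, so the size of its fall is not measured. DNAJC27, a small GTPase with a J domain, and the cysteine string proteins DNAJC5B and DNAJC5G were at background level in both groups.

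The largest fall of the family was that of DNAJC22, a membrane-spanning member whose fly relative acts in endocytosis. It read 8.10 and 7.87 under DMSO and 5.49 and 5.40 under zerumbone. Both zerumbone arrays were far below both DMSO arrays, with a 5.82-fold fall (-2.54 ± 0.098 SE, limma adjusted p 8.45e-05), the 177th largest fall of all genes. DNAJC12, a co-chaperone of the aromatic amino acid hydroxylases, differed by -0.24 near background and did not pass, although it did without zerumbone replicate 1 (limma adjusted p 0.0462). DNAJC4 differed by -0.01 and DNAJC18 was at background level.

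The testis and cilia members DNAJB7, DNAJB8 and DNAJB13 were at background level on all 4 arrays and their groups overlapped. With DNAJA4, DNAJC5B, DNAJC5G, DNAJC18, DNAJC27 and DNAJC28 they make up the 9 members at background level in both groups, and limma called none of these, nor did any of them reach an unadjusted p under 0.05. Both zerumbone values lay above both DMSO values for 20 members (48.8%), against 43.6% of all genes, and below them for 12 (29.3%), against 26.3%.

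Most of the measured HSP70 chaperones that J-domain proteins drive were higher too. Of 8 measured 7 rose by at least 1, against 4.98% of all genes, and HSPA14 (0.11) did not pass, with a median difference of 1.95. With dim genes left out 7 were called higher, against 35.7% of the genes tested. HSPA8 and HSPA1B lie on rows shared with other genes, so these cytosolic forms are not analysed here. HSPA6, a strictly stress-induced cytosolic form, went from 5.81 and 5.74 to 10.34 and 10.45, and HSPA1A, the main inducible form, from 14.53 and 14.64 to 18.07 and 18.14. HSPA1L rose at least 7.43-fold from a DMSO level under background. The HSPA1A, HSPA1L and HSPA6 probes may be shared with close paralogs.

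HSPA13, a microsomal form, rose by 2.04 and HSPA2 by 1.09. HSPA5, the ER form served by DNAJB9, DNAJB11, DNAJC3 and DNAJC10, rose by 1.86, while the last of these and DNAJB11 fell. HSPA9, the mitochondrial form, rose by 1.40 (14.23 and 14.27 under DMSO, 15.62 and 15.69 under zerumbone). Of the 6 mitochondrial genes with a DNAJ symbol measured here, 4 fell.

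Of 13 nucleotide exchange factors 5 rose (38.5%) and the other 8 did not pass, with a median difference of 0.12. No factor was at background level in both groups. Of all genes 35.7% rose with dim genes left out, so the share of factors that rose was close to that. BAG3, which couples HSP70 to selective autophagy, rose by 4.59, HSPH1 by 2.78, HSPA4L by 2.14 and BAG1 by 1.42, all of the cytosol. Of the ER factors HYOU1 rose by 0.36, the smallest of the 5 rises, and SIL1 differed by -0.02. With adjustment over all transcript clusters 4 factors were called higher. The mitochondrial factors GRPEL1 and GRPEL2 differed by -0.03 and -0.10 and did not pass. SEC63, GAK and HSCB, J-domain proteins under other symbols, differed by 0.13, 0.01 and 0.34 and did not pass in limma.

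**Figure D4:**
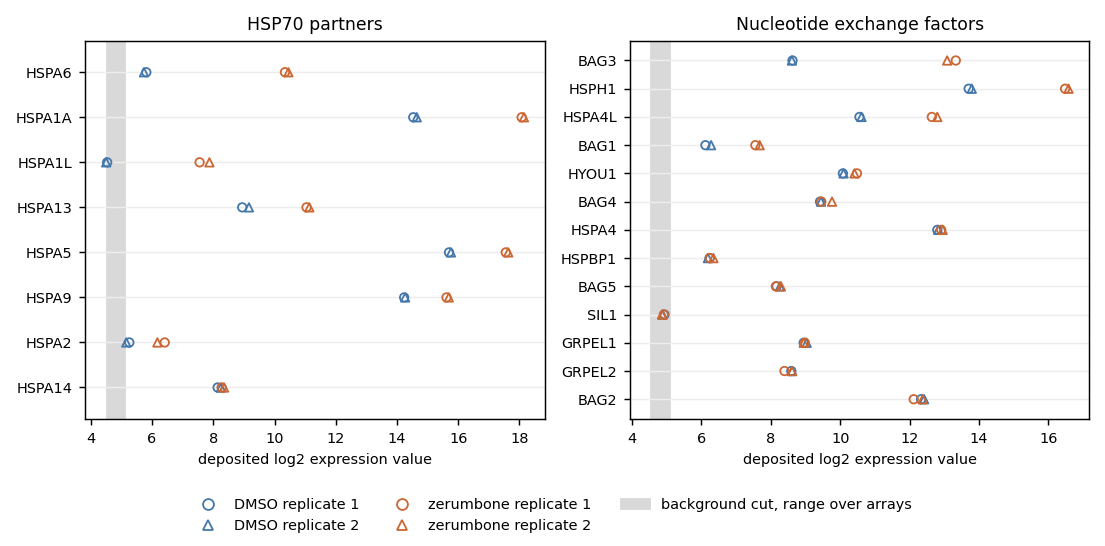
Deposited log2 expression values (horizontal axis) on each array of HSP70 genes (left) and nucleotide exchange factors (right), with colours for the groups, shapes for the replicates and the background range in grey. HSPA6 and BAG3 show the widest gaps, 4.62 and 4.59, while GRPEL1 and GRPEL2 overlap between groups.

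Among 11 measured genes of heat shock and ER stress control 5 rose (45.5%) and 3 fell (27.3%), against 18.4% and 17.7% of all genes. With dim genes left out 6 were called higher and 3 lower, against 35.7% and 36.6% of the genes tested. DDIT3 (3.90), an ER stress transcription factor, HERPUD1 (2.56), a degradation factor of the ER membrane, ATF4 (2.01), the stress sensor gene ERN1 (1.66) and XBP1 (1.32) rose. HSF1 did not pass, at 0.29 (limma adjusted p 0.0761), although it was called higher with dim genes left out. The ER folding genes PDIA4 (-0.62) and MANF (-0.58) fell, as did DNAJB11 and DNAJC10, and STUB1, a ubiquitin ligase that binds HSP70, fell 1.99-fold. Of the 3 falls in this list that of MANF was the weakest call (limma adjusted p 0.0207). With adjustment over all transcript clusters 2 of the list were called lower, and the calls of DNAJB11 and DNAJC10 were lost. Other ER genes did not fall in limma: SDF2L1 (-0.14) and ATF6 (-0.12) did not pass, and HSPA5 (1.86) and HYOU1 (0.36) rose. HSP90B1, on a row shared with other genes, and HSF2 were not measured.

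**Figure D5:**
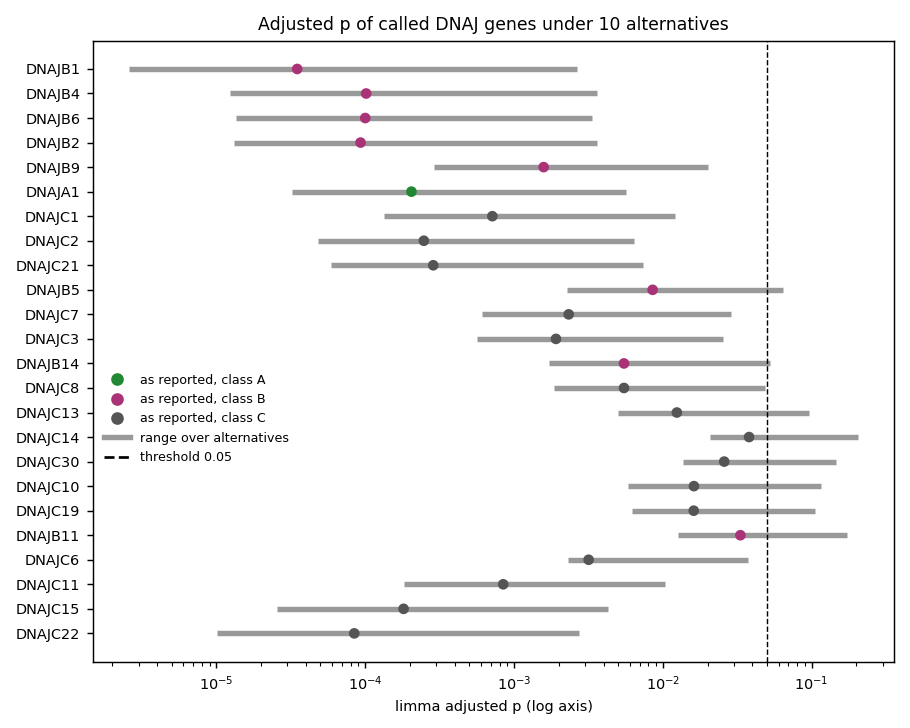
Limma adjusted p (horizontal log axis) of the 24 called DNAJ genes as reported (points, coloured by class) and its range over 10 alternative settings (grey bars), with the threshold of 0.05 dashed. The bars of 16 genes stay left of the threshold and those of 8 cross it, DNAJB5, DNAJB14, DNAJC13, DNAJC14, DNAJC30, DNAJC10, DNAJC19 and DNAJB11.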

How the data were processed

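Total RNA of the 4 samples was hybridised to Affymetrix whole-transcript arrays. The deposited log2 values were made by the authors with RMA in the Affymetrix Expression Console, per the submitters' processing notes, which give no versions. They reach 19.93, above a 16-bit scanner's range, and whether a further step followed was not tested. The array build is not given in the sources used here.

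Of 70523 rows, 2995 rows of controls and of probe regions took no part in the tests. The probe annotation gives 1 symbol for 23781 of the 67528 transcript clusters, several for 1543 and none for 42204. The brightest row by its mean was kept for the 479 genes with more than 1, leaving 22465 genes. Differences were tested, two-sided, with lmFit and eBayes in limma 3.58.1 (R 4.3.3) with 2 residual and 2.88 prior degrees of freedom and Benjamini-Hochberg adjustment. "Rose" and "fell" mean an adjusted p under 0.05. A fold against a group at background level is a lower bound, with the background level in place of a dimmer value. An exact permutation test of 2 arrays against 2 cannot go below 0.333.

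The members, gene lists and places in the cell were chosen with earlier results of these data known. All members are named, and those called with a difference of at least 1, and the extremes of each class, are given on every array. Partner genes are named where called with a difference of at least 1. DNAJB11's second row, partner genes that changed less or did not pass, and the printed windows (for DNAJB1, of its several windows the one with most matches) were picked with their values known. The fit was tested on simulated data. Plots used matplotlib 3.10.9 under Python 3.11.15.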

Additional observations from a re-analysis of the deposited data

Results flagged for a closer look

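DNAJC3-DT, a transcript named for its place beside DNAJC3 and outside the family by the rule, was called higher in a row the comparison of members does not use, with a difference of 0.37. All 4 arrays lay under the background level, with 3.35 and 3.27 under DMSO and 3.58 and 3.78 under zerumbone, so the size of its change is not measured. Groups of 2 arrays are too small for a test of outlying samples.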

How the results depend on the processing

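Of the 24 called members, 12 of 16 that rose and 4 of 8 that fell passed under every one of the 10 alternatives in which they were tested. DNAJC6 was not tested with dim genes left out. The count of members called lower, 8 as reported, was 4 with adjustment over all transcript clusters and ranged from 4 to 6 when 1 array was left out, where the count called higher, 16 as reported, ranged from 12 to 15. Adjustment over all transcript clusters ended the calls of DNAJC13, DNAJC14, DNAJC30, DNAJC10, DNAJC19 and DNAJB11 (limma adjusted p 0.0550 to 0.140), and DNAJC14 also lost its call after median centring (0.0526) and cyclic loess (0.0736). The first of these settings uses more tests, and leaving out an array leaves fewer samples. No called member changed direction. Among members that did not pass, cyclic loess gave DNAJB8 -0.0165, DNAJC5G -0.0243 and DNAJC4 4.38e-04, each with the sign turned. With 1 array left out the sign turned for DNAJC4 (-0.0332 to 0.0200), DNAJB13 (-0.0103 to 0.27), DNAJB7 (-0.0149 to 0.26), DNAJC18 (-0.0122 to 0.19) and DNAJC17 (-0.0225 to 0.0997). The cause was not tested. The 3 J-domain genes with other symbols gave between 0 and 1 call higher in limma with 1 array left out, HSCB without zerumbone replicate 1, and did not pass as reported. With DMSO replicate 1 left out, 5458 of all genes were called, and without DMSO replicate 2, 5541, against 8091. No paired analysis was possible because the labels number no replicates, and the numbers used here only name arrays in order of deposit. Signal near background limits what can be said of 9 members at background level in both groups.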
